A study of Mus musculus with 8 samples.

Results

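Transcripts of 41 phase II conjugation enzymes, of 14506 genes listed, were measured in livers of young mice that carried an activating form of RagC and in livers of control mice. Members were taken by name, as every listed gene of the families *Gsta*, *Gstk*, *Gstm*, *Gsto*, *Gstp*, *Gstt*, *Gstz* and *Mgst* (glutathione transferases, 20 members), *Ugt1* to *Ugt3* (glucuronosyltransferases, 14 members) and *Sult* (sulfotransferases, 7 members), and names marked as pseudogenes were dropped. The 4 control livers were *Rragc*+/+ (replicates 1 to 3 aged 3 months and replicate 4 aged 2.5 months) and the other 4 were *Rragc* S74N/+ (replicates 1 and 2 aged 3 months, replicate 3 aged 2.5 months and replicate 4 aged 2 months). *Rragc* encodes RagC, a GTPase that signals nutrient sufficiency to the kinase complex mTORC1. S74N replaces serine by asparagine on 1 allele in the germline, so every cell type of the liver carried it, and silent changes made during the editing lie on the same allele. No treatment or fasting is stated for these mice, and the labels give no sex. The comparison asks which conjugation enzymes differed at an age at which, as the study describes it, organ damage cannot yet be seen.

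Phase II enzymes attach a polar group to drugs, hormones, bilirubin, bile acids and products of lipid oxidation, usually after oxidation by cytochromes P450. Glutathione transferases add glutathione, glucuronosyltransferases of the endoplasmic reticulum add glucuronic acid from UDP-glucuronate, and cytosolic sulfotransferases add sulfate from PAPS, the activated form of sulfate. The conjugates leave hepatocytes through export pumps into bile or blood. Hepatocytes hold most of these enzymes, and several members are known to be transcribed at different levels in male and female mouse liver.

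Reads recovered from the values numbered 4313076 to 6632108 per liver. Hepatocyte markers were abundant in every liver, with a summed normalized count of 215175 to 314835 in *Rragc*+/+ and 232959 to 417333 in *Rragc* S74N/+ livers, and 4 Y-linked genes were detected in all 8 livers. *Rragc* S74N/+ replicate 4, the 2-month-old mouse, stood furthest apart in summed markers of liver sex bias. The other 3 *Rragc* S74N/+ livers also lay below the controls in the male-biased sum. The summed normalized count of 9 male-biased genes was 17202 in that liver, 33890 to 60750.0 in the other 3 *Rragc* S74N/+ livers and 71125 to 80224 in *Rragc*+/+ livers. All 9 had a log2 fold change below 0. Of them 4 had an unadjusted p under 0.05 (limma), against 2.80% of all tested genes in that direction. Without the 2-month-old liver these 4 kept such a p. Their log2 fold changes were then -1.2 (*Selenbp2*), -0.76 (*Elovl3*), -0.90 (*Cyp7b1*) and -1.11 (*Mup20*). *Cyp4a12a* turned to 0.25, and the others stayed below 0. The sum of the 3 listed female-biased genes, of 11 looked for, was 888 in the 2-month-old liver. It was 19.3 to 47.1 in the other 3 *Rragc* S74N/+ livers and 17.7 to 29.9 in *Rragc*+/+ livers. Of 40 tested markers of other cell types, hepatocytes and liver zones, 6 were higher at an unadjusted p under 0.05, against 2.37% of all tested genes. These were *Col1a1*, *Lyve1*, *Marco*, *Pck1*, *Pecam1* and *Sds*. Another 2 were lower (*Gpx3* and *Kap*), against 2.80%. Log2 fold changes were above 0 for 4 of 5 Kupffer cell, 2 of 4 sinusoidal endothelium, 2 of 4 stellate cell and 5 of 6 periportal markers tested. *Gpx3* and *Kap* stand in a list of kidney markers, of which 4 were listed. The summed normalized count of the 4 was 212 to 350.3 in *Rragc*+/+ and 56.3 to 103 in *Rragc* S74N/+ livers. *Slc34a1* and *Slc12a1*, also in that list, were not lower and had too few counts to be tested. Their means were 8.17 and 2.46 in *Rragc*+/+ and 8.90 and 2.52 in *Rragc* S74N/+ livers. *Gpx3* was the gene called by limma among all those tested (log2 fold change -1.95, adjusted p = 0.0411). The part of all these markers in the results was not tested. Log2 fold changes without the 2-month-old liver are added for the members that it moved most. In whole liver, fewer cells of a type and less RNA per cell cannot be told apart.

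Promoter sequence is shown first for the members on which the later comparisons turn. All windows are reference sequence from RefSeq on GRCm38.p6, 250 bases before to 50 after the annotated start, and 37 of the 41 members had at least 1 window in that table. *Gstm1* is the most abundant member and the one whose genotypes did not overlap. *Gsta3* was called lower at 2.5 than at 3 months, and *Ugt1a1* was highest in both 2.5-month-old livers. Capitals mark AGGTCA (a nuclear receptor half-site) in *Gstm1*, TGACNNNGC (the antioxidant response core) in *Gsta3* and GTTAATNAT (an HNF1 half-site), which lies on the reverse strand, in *Ugt1a1*. *Gstm1* has a further window, of another annotated start (chr3:108017924-108018223), that holds none of these motifs and is not printed.

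*Gstm1*, chr3:108017769-108018068, reverse strand: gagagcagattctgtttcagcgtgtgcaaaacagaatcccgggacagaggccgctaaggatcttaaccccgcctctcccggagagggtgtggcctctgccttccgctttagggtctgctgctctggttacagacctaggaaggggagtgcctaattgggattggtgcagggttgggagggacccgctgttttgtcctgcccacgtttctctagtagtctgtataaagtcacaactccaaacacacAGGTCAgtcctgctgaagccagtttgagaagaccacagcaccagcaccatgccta
*Gsta3*, chr1:21240335-21240634, forward strand: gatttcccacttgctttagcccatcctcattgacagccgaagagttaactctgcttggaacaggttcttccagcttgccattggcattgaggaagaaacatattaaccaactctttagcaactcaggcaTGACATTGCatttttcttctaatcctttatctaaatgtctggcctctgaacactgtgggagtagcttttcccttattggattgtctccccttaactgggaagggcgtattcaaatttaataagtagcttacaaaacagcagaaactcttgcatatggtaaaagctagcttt
*Ugt1a1*, chr1:88211709-88212008, forward strand: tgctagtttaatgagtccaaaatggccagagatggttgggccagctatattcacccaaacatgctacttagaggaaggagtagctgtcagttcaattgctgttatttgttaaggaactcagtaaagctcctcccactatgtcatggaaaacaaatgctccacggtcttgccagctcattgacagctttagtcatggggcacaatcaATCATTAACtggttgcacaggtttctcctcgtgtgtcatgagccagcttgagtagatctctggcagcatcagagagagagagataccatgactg

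Each motif was searched on both strands. A member was counted if any of its windows matched, and several members had more than 1 window. Shares of members are therefore not directly comparable with shares of windows. TGACNNNGC was in 12.4% of all 32851 windows and in windows of 4 of the 37 members (10.8%), which were *Gsta3*, *Gstm5*, *Gstm7* and *Mgst1*. AGGTCA was in 16.3% of all windows and in 10 of the 37 members (27.0%), 5 of them *Ugt2b* genes. GTTAATNAT was in 0.801% of all windows and in 2 members (5.41%), *Sult1d1* and *Ugt1a1*. A match is a description of these letters and no evidence of binding.

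The 5 *Ugt2b* genes with AGGTCA are neighbours on chromosome 5, and stretches of 66 bases placed on that motif are shown because nearly the same letters in *Ugt2b38*, *Ugt2b37* and *Ugt2b5* stand beside different levels in the liver, with *Ugt2b36* and *Ugt2b35* as less similar neighbours.
*Ugt2b38*, chr5:87424193-87424258: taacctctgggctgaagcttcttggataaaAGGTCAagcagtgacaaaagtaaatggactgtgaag
*Ugt2b37*, chr5:87254792-87254857: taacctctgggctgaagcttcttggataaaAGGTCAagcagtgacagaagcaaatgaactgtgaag
*Ugt2b5*, chr5:87140327-87140392: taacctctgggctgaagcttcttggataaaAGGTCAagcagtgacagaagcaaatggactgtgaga
*Ugt2b36*, chr5:87092545-87092610: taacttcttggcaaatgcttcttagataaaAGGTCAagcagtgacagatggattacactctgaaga
*Ugt2b35*, chr5:87000615-87000680: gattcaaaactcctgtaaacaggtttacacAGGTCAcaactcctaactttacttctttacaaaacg

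Of the 66 positions, 63 were identical to *Ugt2b38* in *Ugt2b37*, 62 in *Ugt2b5*, 44 in *Ugt2b36* and 13 in *Ugt2b35*. The motif began 25 bases before the annotated start in *Ugt2b38* and *Ugt2b36*, 39 in *Ugt2b37*, 22 in *Ugt2b5* and 215 in *Ugt2b35*. Mean normalized counts over the 8 livers were 79.3 for *Ugt2b38*, 36.3 for *Ugt2b37*, 1366 for *Ugt2b5*, 4349.9 for *Ugt2b36* and 549 for *Ugt2b35*. So the 3 genes that shared at least 62 of these 66 bases lay at very different levels.

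Levels were compared between genes directly, because the kit makes reads from the 3′ end of each transcript and a longer transcript yields no more of them. A gene whose 3′ end is shared with another gene is an exception, since its reads may not all have been counted. The values are read counts per gene that the authors scaled to a common library size (normalized counts). All 41 members together took 0.615% to 0.837% of the recovered reads of a liver. Glutathione transferases summed to 22965 ± 2184 normalized counts in controls (SD, n = 4) and to 29054 ± 4715 with the S74N allele (SD, n = 4). Glucuronosyltransferases summed to 14781 ± 2963 and 13779.9 ± 3751, and sulfotransferases to 1637 ± 403 and 1678 ± 159 (SD, n = 4 each). The ranges of the 2 genotypes overlapped in each subgroup.

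A few members made up most of each subgroup. *Gstm1*, a cytosolic transferase of the mu class, made up 44.1% of the glutathione transferase total over the 8 livers, followed by *Gsta3* of the alpha class with 14.4% and *Gstz1*, the maleylacetoacetate isomerase of tyrosine breakdown, with 10.9%. *Ugt2b1* made up 37.8% and *Ugt2b36* 30.5% of the glucuronosyltransferase total as counted. The 3′ ends of *Ugt1a1*, *Ugt1a5* and *Ugt1a6a* lie wholly in exons of other genes, so their part in this total may be understated. *Sult2a8*, which sulfates bile acids, made up 44.4% of the sulfotransferase total and *Sult1d1*, which takes catecholamines among its substrates, 25.9%.

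**Figure D1:**
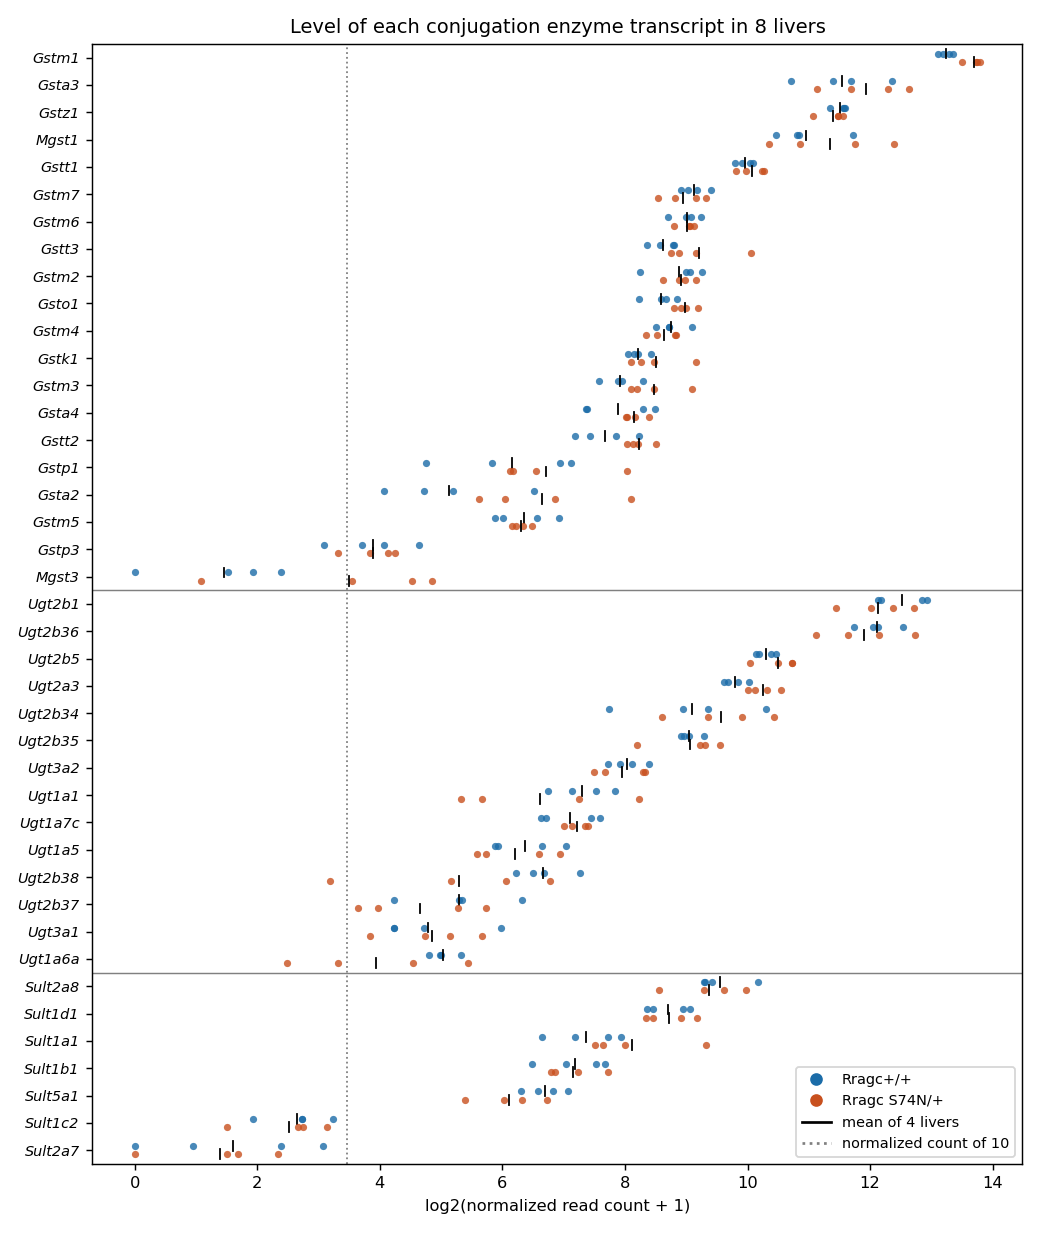
Level of each of the 41 members on the horizontal axis as log2(normalized read count + 1), with a point for each liver (blue, *Rragc*+/+, orange, *Rragc* S74N/+), a black line for the mean of 4 livers, and grey horizontal lines between the glutathione transferases, glucuronosyltransferases and sulfotransferases from top to bottom. *Gstm1* lies highest, and *Mgst3*, *Sult1c2* and *Sult2a7*, whose mean over the 8 livers is below the dotted line at a normalized count of 10, were not tested.

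To ask which members differed between genotypes, all 11174 genes with a mean normalized count of at least 10 were tested with limma on log2(normalized count + 1), and 38 of the 41 members passed that filter. None of the 38 had a Benjamini-Hochberg adjusted p under 0.05. The lowest adjusted p among them was 0.846, and 1 gene of all those tested passed (0.00895%). On the reads, edgeR also called no member, with 0.00895% of genes called, and neither did DESeq2, with 0.0896%, and with each of them 6 members had an unadjusted p under 0.05 (5.53% of all genes with edgeR and 6.04% with DESeq2). At an unadjusted p under 0.05, 4 members were higher in *Rragc* S74N/+ livers, against 2.37% of all tested genes, and 1 was lower, against 2.80%. These 5 members, 13.2% of the 38, were *Gsta2*, *Gstm1*, *Gstt2* and *Ugt2a3* (higher) and *Ugt2b38* (lower). Over all tested genes 5.17% had such a p. Groups did not overlap for 1 member that was higher (*Gstm1*), against 1.30% of all tested genes, and for no member that was lower, against 1.64%.

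The median log2 fold change was 0.29 over 19 glutathione transferases, of which 15 were above 0, -0.12 over 14 glucuronosyltransferases, of which 6 were above 0, and -0.029 over 5 sulfotransferases, of which 2 were above 0. Over all tested genes it was 0.012, with 51.3% of genes above 0. Without *Rragc* S74N/+ replicate 4 the medians were 0.16, 0.0037 and -0.13, and with each liver left out in turn that of the sulfotransferases took both signs. A difference between the subgroups was not tested. Without *Rragc* S74N/+ replicate 4 no member had an unadjusted p under 0.05, against 2.81% of all genes in that fit, and without *Rragc* S74N/+ replicate 3 there were 11, against 15.0% of all genes.

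**Figure D2:**
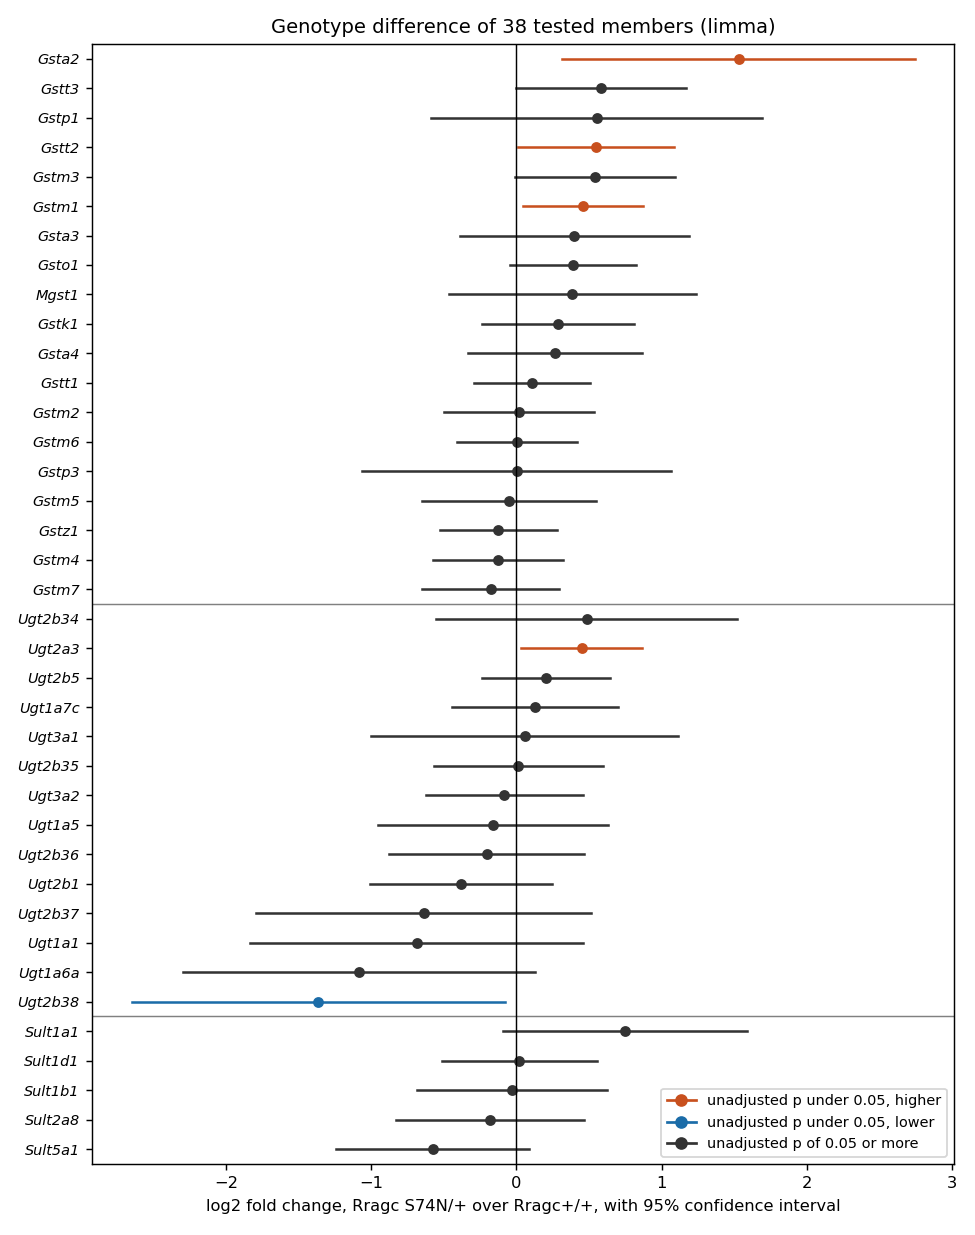
Log2 fold change of *Rragc* S74N/+ over *Rragc*+/+ livers on the horizontal axis for the 38 tested members, with 95% confidence intervals from limma, sorted within glutathione transferases, glucuronosyltransferases and sulfotransferases from top to bottom. Of the 38 intervals, 5 exclude 0 (orange, *Gsta2*, *Gstt2*, *Gstm1* and *Ugt2a3*, and blue, *Ugt2b38*), and none of these members passed adjustment over all genes.

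Among the glutathione transferases, *Gstm1* separated the genotypes most evenly. Its normalized counts were 10518, 9967, 8868 and 9312 in the control livers, in the order of replicates 1 to 4, and 13627, 13770.3, 11550.5 and 14228 in the *Rragc* S74N/+ livers. Every *Rragc* S74N/+ liver was above every *Rragc*+/+ liver, and the lowest of the 4 was the 2.5-month-old mouse. The means were 9666 ± 725 and 13294 ± 1190.2 (SD, n = 4 each). This is a log2 fold change of 0.46 (standard error 0.19), or 1.37-fold (limma unadjusted p = 0.0315, adjusted p = 0.846). The difference kept its sign in all 8 fits that each omitted a liver, 2 of which gave an unadjusted p under 0.05, and it was 0.42 without *Rragc* S74N/+ replicate 4. Part of its 3′ end, 23.0% of the windows compared, is shared with *Gstm3* and with sequences annotated as pseudogenes.

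*Gsta2*, an alpha-class enzyme that is induced by oxidants in rodent liver, had the largest fold change of the tested members. Its normalized counts were 15.8, 35.5, 90.5 and 25.2 in *Rragc*+/+ livers and 115, 64.9, 47.9 and 274 in *Rragc* S74N/+ livers, in replicate order. The 2-month-old liver held the highest value by far, and *Rragc*+/+ replicate 3 lay above 2 of the *Rragc* S74N/+ livers, so the genotypes overlapped. The log2 fold change was 1.53 (standard error 0.56, limma unadjusted p = 0.0177, adjusted p = 0.846). It was 1.05 without the 2-month-old liver (unadjusted p = 0.0615) and 1.19 among 3-month-old mice alone (unadjusted p = 0.0469). Of the windows in its 3′ end, 62.1% are shared with *Gsta1* and related predicted genes, so the reads are uncertain between these copies.

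*Gstt2*, of the theta class, was higher with less separation. Its normalized counts were 144, 298, 231 and 172 in *Rragc*+/+ and 278, 262, 364 and 296 in *Rragc* S74N/+ livers. *Rragc*+/+ replicate 2 lay above 3 of the *Rragc* S74N/+ livers. The log2 fold change was 0.55 (standard error 0.25, limma unadjusted p = 0.0459). *Gstt3*, of the same class and locus, had 440.0, 445, 328 and 377 in *Rragc*+/+ and 432, 568, 471 and 1061 in *Rragc* S74N/+ livers (log2 fold change 0.58, unadjusted p = 0.0504). Here the 2-month-old liver lay far above the other 7, and without it the log2 fold change was 0.30.

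The remaining abundant glutathione transferases varied more within genotypes than between them. *Gsta3*, an alpha-class enzyme that detoxifies aflatoxin epoxide in mice, ranged from 1672 to 5265 in *Rragc*+/+ and from 2242 to 6389 in *Rragc* S74N/+ livers (log2 fold change 0.40, standard error 0.37, and 0.16 without the 2-month-old liver). *Mgst1*, a membrane-bound enzyme of the endoplasmic reticulum and outer mitochondrial membrane, ranged from 1416 to 3378 and from 1312 to 5371, with the highest value in *Rragc* S74N/+ replicate 1 (log2 fold change 0.39, standard error 0.39, and 0.25 without the 2-month-old liver). *Gstz1* was steadier, at 2591 to 3077 and 2143 to 3002 (log2 fold change -0.12, standard error 0.19), and *Gstt1* lay at 888 to 1092 and 894 to 1227 (log2 fold change 0.11, standard error 0.19). None of these 4 had an unadjusted p under 0.05.

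*Gstp1*, the pi-class enzyme that is more abundant in male than in female mouse liver, showed no clear genotype difference. Its normalized counts were 26.1, 56.1, 139 and 121 in *Rragc*+/+ and 261, 68.4, 71.3 and 92.2 in *Rragc* S74N/+ livers. Only *Rragc* S74N/+ replicate 1 lay outside the *Rragc*+/+ range. The log2 fold change was 0.55 with a 95% confidence interval of -0.58 to 1.69. Of the windows in its 3′ end 78.0% are shared with *Gstp2* and *Gstp-ps*, so its reads are uncertain. The mu-class genes other than *Gstm1* lie beside it in a run of 7 members on chromosome 3 (GRCm38 107895821 to 108044894, 149 kb), and log2 fold changes along this run went from -0.18 (*Gstm7*) to 0.54 (*Gstm3*, 0.33 without the 2-month-old liver). Members in such runs lie next to each other and are not independent observations.

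The lowest glutathione transferase was *Mgst3*, a microsomal enzyme outside the tested set that is described here after its values were seen. Its normalized counts were 1.86, 2.81, 4.24 and 0 in *Rragc*+/+ and 22.0, 10.7, 1.11 and 27.7 in *Rragc* S74N/+ livers. *Rragc* S74N/+ replicates 1, 2 and 4 lay above all *Rragc*+/+ livers, while replicate 3 did not. The counts are too low for a statement on the genotype at this depth.

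Among the glucuronosyltransferases, *Ugt2a3*, a member of the *Ugt2* family whose human counterpart acts on bile acids, was higher. Its normalized counts were 824, 922, 1045 and 785 in *Rragc*+/+ and 1116, 1271, 1026 and 1492 in *Rragc* S74N/+ livers. The genotypes touched, since *Rragc*+/+ replicate 3 lay above the 2.5-month-old *Rragc* S74N/+ liver and below the other 3. The means were 894 ± 116 and 1226 ± 204 (SD, n = 4 each), which is a log2 fold change of 0.45 (standard error 0.19). Its unadjusted p was 0.0362 and its adjusted p 0.846 (limma). No window in its 3′ end is shared with another gene, and it kept its direction in all 20 alternative fits. An unadjusted p under 0.05 was found in 3 of the 8 leave-one-out fits. Its difference was 0.35 on the log2 scale without the 2-month-old liver (unadjusted p = 0.102) and 0.36 among 3-month-old mice alone (unadjusted p = 0.14).

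*Ugt2b38*, which is sex-biased in mouse liver, was the lower member. It had 89.5, 101, 73.6 and 152 normalized counts in *Rragc*+/+ and 109, 34.7, 65.7 and 8.16 in *Rragc* S74N/+ livers. Of the *Rragc* S74N/+ livers 3 lay below all *Rragc*+/+ livers, with the lowest value in the 2-month-old mouse, and replicate 1 lay among the controls. The log2 fold change was -1.36 (standard error 0.59, limma unadjusted p = 0.0392, adjusted p = 0.846). It was -0.66 without the 2-month-old liver (unadjusted p = 0.107) and -0.49 among 3-month-old mice alone (unadjusted p = 0.26). *Ugt2b37*, which shares nearly all of the printed stretch with it, had 17.7, 38.3, 39.6 and 78.5 in *Rragc*+/+ and 37.6, 11.6, 52.4 and 14.7 in *Rragc* S74N/+ livers, with a log2 fold change of -0.64 and an interval of -1.79 to 0.52 (-0.41 without the 2-month-old liver). *Ugt2b5*, which also shares it, had a log2 fold change of 0.20 with an interval of -0.23 to 0.64 (0.36 without that liver), and ranged from 1128 to 1413 in *Rragc*+/+ and from 1054 to 1699 in *Rragc* S74N/+ livers.

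The most abundant glucuronosyltransferases, which take steroids and xenobiotics as substrates, did not separate the genotypes. *Ugt2b1* had 4620.0, 4458, 7801 and 7338 normalized counts in *Rragc*+/+ and 5278, 4136, 6753 and 2770.4 in *Rragc* S74N/+ livers, with the lowest value in the 2-month-old mouse (log2 fold change -0.38, interval -1.01 to 0.25, and -0.15 without that mouse). *Ugt2b36* had 4215, 3429, 4496 and 5923 and 3203, 4542, 6782 and 2208, with the 2 highest values in the 2.5-month-old mice and the lowest in the 2-month-old mouse (log2 fold change -0.21, interval -0.87 to 0.46, and 0.061 without that mouse). *Ugt2b34* had the widest spread of the abundant ones, with 491, 657, 1266 and 212 and 1379.9, 652, 387 and 959 (log2 fold change 0.49, interval -0.55 to 1.52). Beside them on chromosome 5 lie *Sult1b1* and *Sult1d1*. This run of 10 members spans 679 kb (GRCm38 86889767 to 87569027), and the log2 fold changes in it ranged from -1.36 (*Ugt2b38*) to 0.49 (*Ugt2b34*).

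The 4 listed *Ugt1a* genes share 1 locus on chromosome 1 (GRCm38 88095062 to 88220002), in which alternative first exons are spliced to common last exons. *Ugt1a1*, the enzyme that conjugates bilirubin, had 139, 106, 182 and 228 normalized counts in *Rragc*+/+ and 49.6, 152, 299.8 and 39.2 in *Rragc* S74N/+ livers. The *Rragc* S74N/+ livers covered both extremes, with replicate 3 highest and replicates 1 and 4 lowest of all 8. The log2 fold change was -0.69 with an interval of -1.83 to 0.46, and it was -0.26 without the 2-month-old liver. *Ugt1a6a*, which acts on phenols, had 30.8, 39.3, 26.9 and 30.8 and 4.59, 22.2, 42.3 and 8.97, so that 3 of the 4 *Rragc* S74N/+ livers lay below all controls (log2 fold change -1.08, unadjusted p = 0.0758, and -0.88 without the 2-month-old liver). *Ugt1a5* and *Ugt1a7c* had log2 fold changes of -0.16 and 0.13. All windows in the 3′ ends of *Ugt1a1*, *Ugt1a5* and *Ugt1a6a*, and 43.7% of those of *Ugt1a7c*, are shared within the locus. Whether the authors' counting divided such reads or left them out is not stated. Values of the *Ugt1a* genes are uncertain between them, and would be too low if such reads were left out.

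The *Ugt3a* genes are known to transfer sugars other than glucuronic acid. *Ugt3a1* ranged from 17.7 to 62.2 in *Rragc*+/+ and from 13.4 to 49.6 in *Rragc* S74N/+ livers, and *Ugt3a2* from 209.7 to 334 and from 179.5 to 321. Neither separated the genotypes, with log2 fold changes of 0.059 and -0.085.

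Among the sulfotransferases no member had an unadjusted p under 0.05. *Sult1a1*, the main phenol sulfotransferase, had 144, 209, 245 and 99.0 normalized counts in *Rragc*+/+ and 198, 256, 182 and 639.6 in *Rragc* S74N/+ livers. The 2-month-old liver lay far above the rest, and the other 3 *Rragc* S74N/+ livers lay within or just above the control range. The log2 fold change was 0.75 with an interval of -0.094 to 1.59, and it was 0.35 without that liver. *Sult2a8* had 626, 685, 1149 and 632 and 1006, 627, 788 and 377, with the lowest value in the 2-month-old mouse (log2 fold change -0.18, interval -0.83 to 0.46, and 0.085 without that mouse).

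*Sult5a1*, an orphan member, had 112, 77.6, 94.8 and 134 in *Rragc*+/+ and 64.3, 79.1, 105 and 40.8 in *Rragc* S74N/+ livers (log2 fold change -0.58, unadjusted p = 0.0842). The lowest value was again in the 2-month-old liver, and the log2 fold change was -0.33 without it (unadjusted p = 0.271). *Sult1d1* and *Sult1b1*, an enzyme of thyroid hormones and phenols, had log2 fold changes of 0.02 and -0.029, with intervals of -0.51 to 0.56 and -0.68 to 0.63. These intervals leave room for a change of more than 0.5 on the log2 scale in either direction. *Sult2a7*, of a class of hydroxysteroid sulfotransferases that is female-biased in mice, had at most 7.46 normalized counts, in *Rragc*+/+ replicate 1, and was listed at 0 in 1 liver of each genotype. *Sult1c2* ranged from 2.80 to 8.39 and from 1.84 to 7.80.

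**Figure D3:**
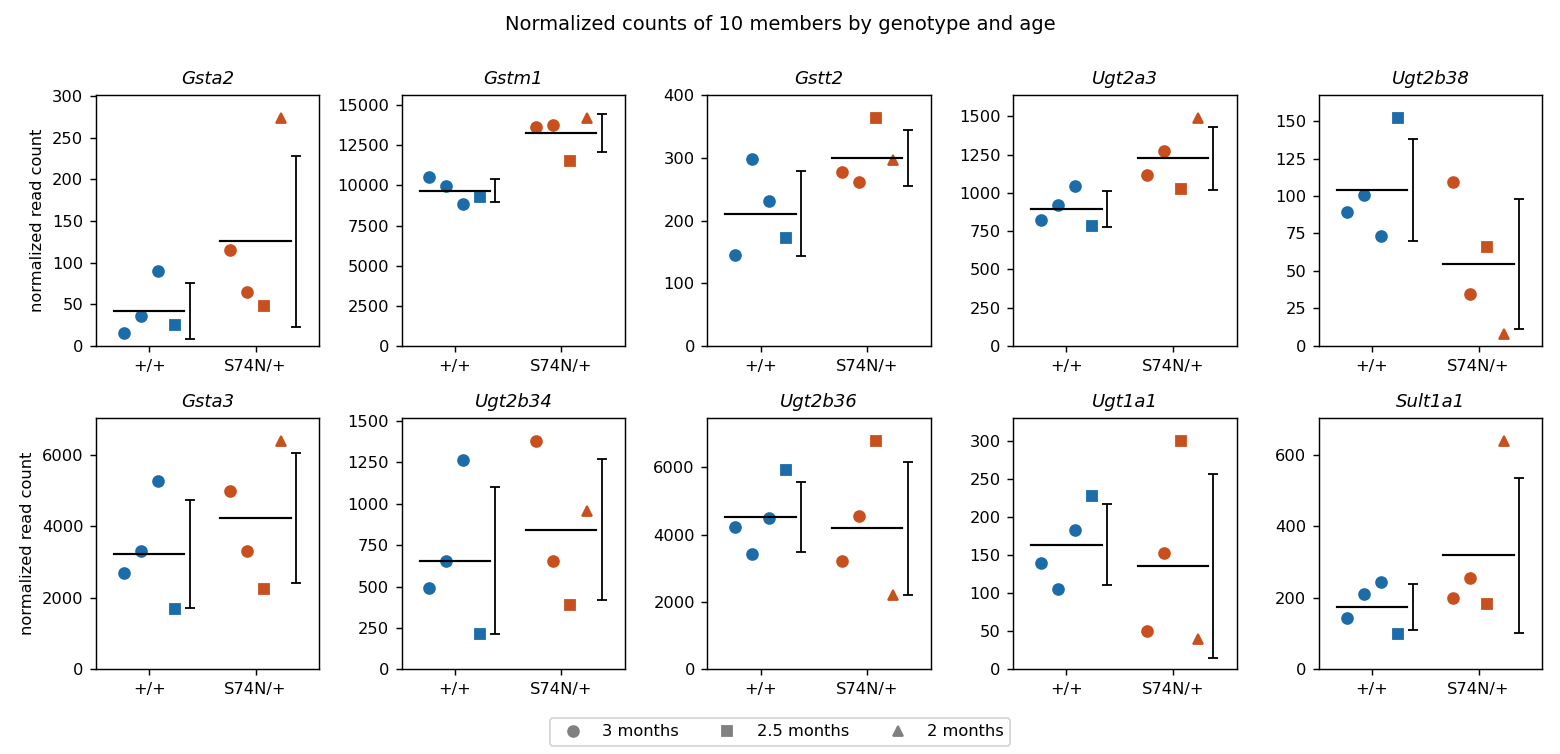
Normalized read counts of 10 members on linear axes that start at 0, by *Rragc* genotype, with a point for each liver (circles, 3 months, squares, 2.5 months, triangle, 2 months), a horizontal line at the mean of 4 livers and a bar for the SD. *Gstm1* separates the genotypes, and the triangle is its highest point. The triangle is also an extreme value for *Gsta2*, *Ugt2a3*, *Ugt2b38*, *Ugt2b36*, *Gsta3*, *Ugt1a1* and *Sult1a1*, and both squares lie together at 1 end for *Gsta3*, *Ugt2b34*, *Ugt2b36* and *Ugt1a1*.

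Reads of a 3′ kit fall mostly near the end of the transcript, so members whose ends resemble another gene are uncertain. The last 500 bases of each protein-coding transcript (GENCODE M21, GRCm38) were cut into windows of 50 bases and looked for in all other genes. Of the 41 members 23 shared no window, 13 shared some and 5 shared at least 50% (*Gsta2*, *Gstp1*, *Ugt1a1*, *Ugt1a5* and *Ugt1a6a*). The members at an unadjusted p under 0.05 that lay under that limit were *Gstm1*, *Gstt2*, *Ugt2a3* and *Ugt2b38*, 4 of 33. Over all tested genes 5.17% had such a p, and no member had it without *Rragc* S74N/+ replicate 4.

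**Figure D4:**
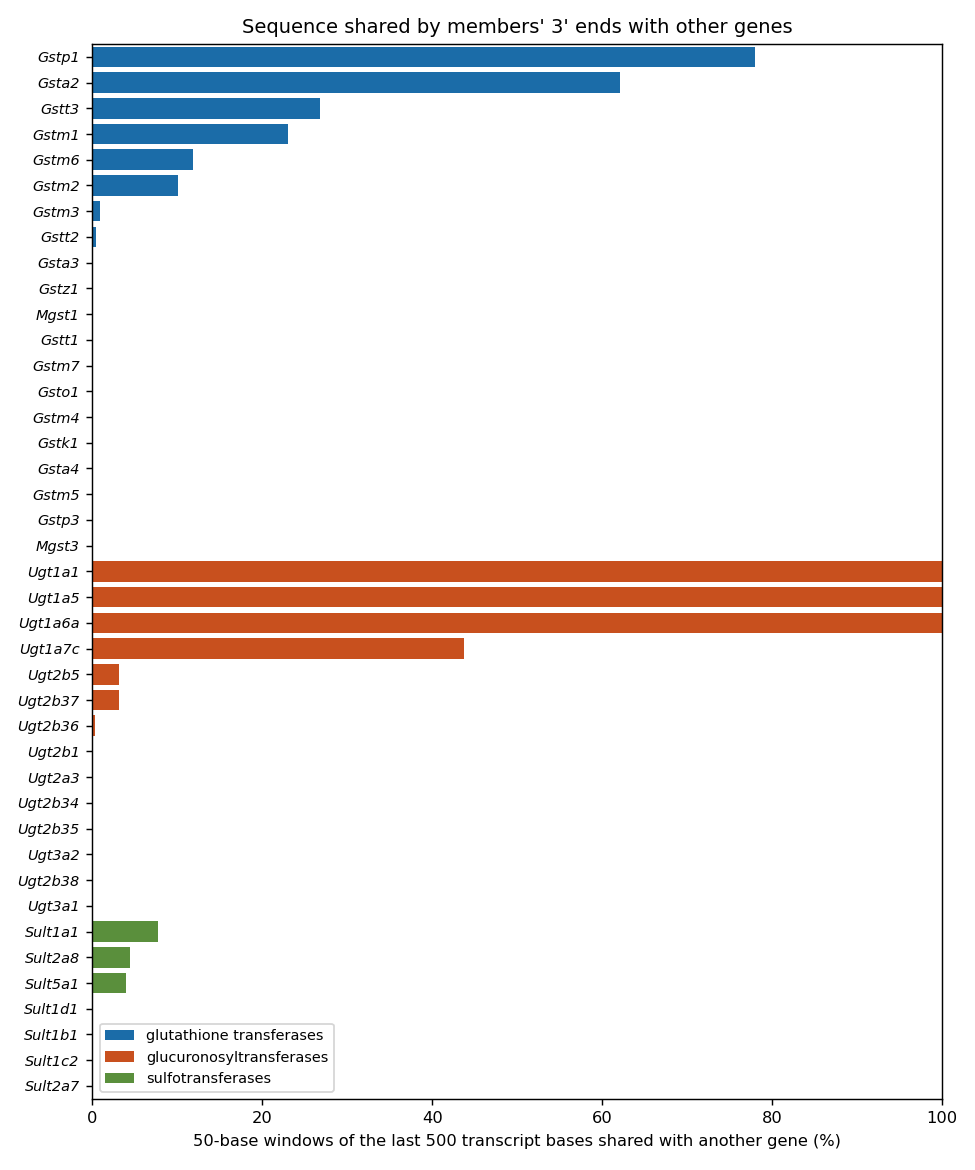
Share of 50-base windows in the last 500 transcript bases that also occur in another gene, in percent on the horizontal axis, for the 41 members (blue, glutathione transferases, orange, glucuronosyltransferases, green, sulfotransferases). The bars of *Ugt1a1*, *Ugt1a5* and *Ugt1a6a* reach 100%, those of *Gstp1* and *Gsta2* 78.0% and 62.1%, and 23 members have no bar.

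The members were also described by liver, since several had their extreme value in the same animal. *Rragc* S74N/+ replicate 4 held the highest or lowest value of the 8 livers for 20 of the 38 tested members (52.6%), against 35.4% of all tested genes. Its 12 highest members were *Gsta2*, *Gsta3*, *Gstk1*, *Gstm1*, *Gstm3*, *Gsto1*, *Gstt1*, *Gstt3*, *Sult1a1*, *Sult1b1*, *Sult1d1* and *Ugt2a3*, so 8 were glutathione transferases and 1 was a glucuronosyltransferase. Its 8 lowest were *Sult2a8*, *Sult5a1*, *Ugt1a1*, *Ugt2b1*, *Ugt2b35*, *Ugt2b36*, *Ugt2b38* and *Ugt2b5*, so 6 were glucuronosyltransferases. The liver with the next most extremes was *Rragc*+/+ replicate 4, with 15 members (39.5%) against 34.0% of all tested genes. In the 2-month-old liver glutathione transferases took 0.631% of the recovered reads and glucuronosyltransferases 0.172%, the highest and the lowest share of these subgroups among the 8 livers. It was also the liver with the lowest sum of male-biased markers, and being the only mouse of its age its age, genotype and sex-biased markers cannot be told apart.

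**Figure D5:**
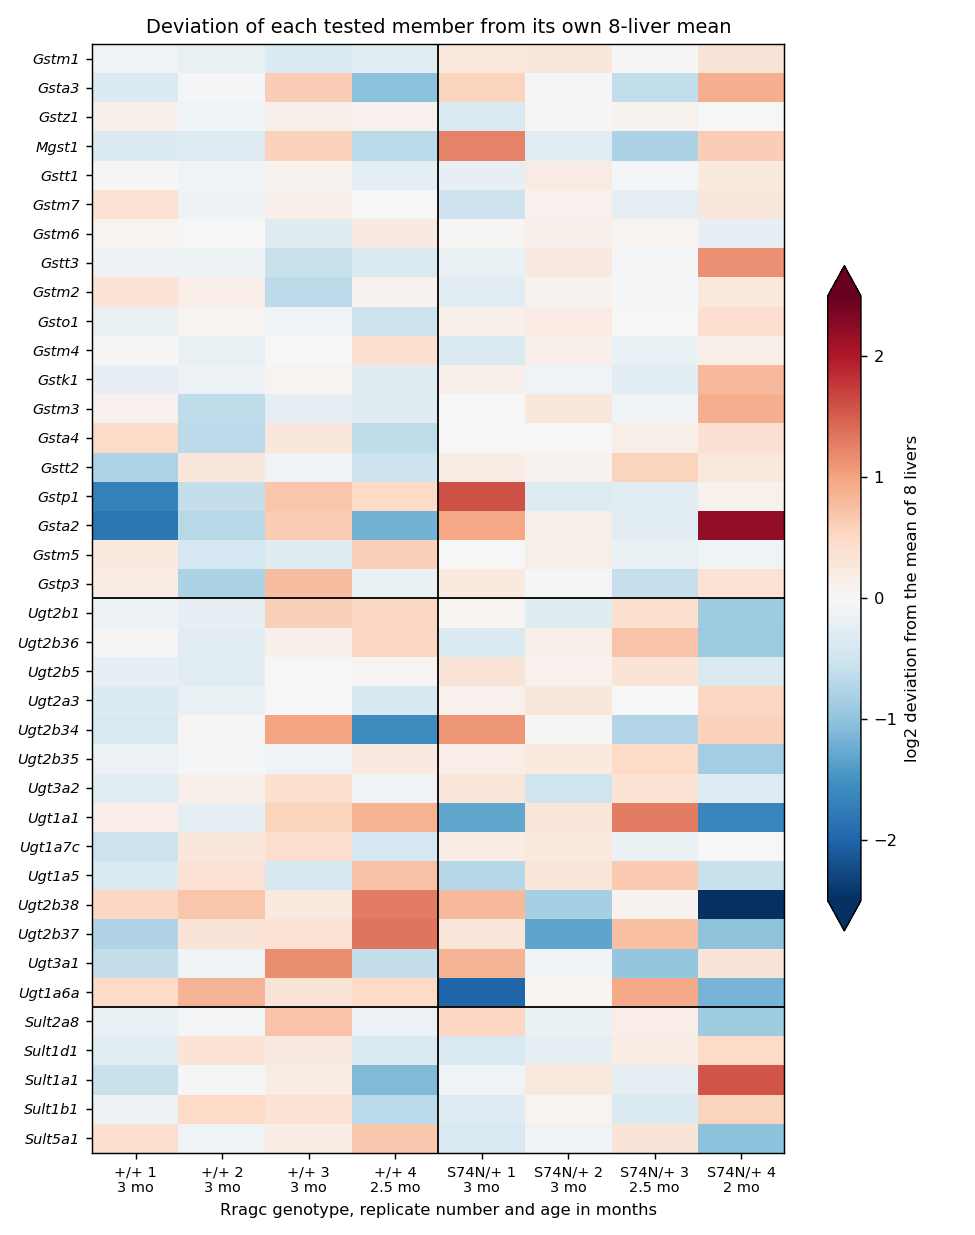
Deviation of each of the 38 tested members (rows) from its own mean over the 8 livers, in log2 units by colour, with livers in columns labelled by *Rragc* genotype, replicate number and age in months, and black lines between genotypes and between the 3 subgroups. The last column (*Rragc* S74N/+ replicate 4) holds the highest or lowest value of 20 members, with *Ugt2b38* below the end of the scale, and columns 4 and 7, the 2.5-month-old mice, are alike for *Gsta3*, *Ugt2b34*, *Ugt2b36* and *Ugt1a1*.

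Because the 2.5-month-old mouse of each genotype resembled the other, 2.5 months was compared with 3 months among 7 livers, with genotype in the model and without the 2-month-old mouse. This comparison was chosen after the values were seen, and age cannot be told apart from any other feature that these 2 mice shared. With limma, 2 of the 38 members were called lower at 2.5 months, against 3.31% of all tested genes, and none higher, against 0.387%. *Ugt2b34* was at 212 and 387 normalized counts in the 2.5-month-old livers and at 491, 657, 1266, 1379.9 and 652 in the 3-month-old ones. Both 2.5-month-old livers were the lowest of all 8, while the 2-month-old liver, outside this comparison, had 959. The log2 difference was -1.56 (standard error 0.33, limma adjusted p = 0.0136). *Gsta3* was at 1672 and 2242 against 2688, 3317, 5265, 4999 and 3305, again the lowest of all 8, while the 2-month-old liver had the highest value (6389), with a log2 difference of -0.99 (standard error 0.25, limma adjusted p = 0.0361). With each 2.5-month-old liver left out in turn neither gene was called.

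A further 7 members had an unadjusted p under 0.05 in this comparison. *Ugt2b37* (1.32 on the log2 scale), *Ugt1a1* (1.21), *Ugt1a5* (0.87) and *Ugt2b36* (0.69) were higher at 2.5 months, and *Mgst1* (-0.94), *Sult1a1* (-0.66) and *Sult1b1* (-0.61) lower. Such a p was held by 23.7% of the 38 members and by 19.7% of all tested genes. Both 2.5-month-old livers were the 2 lowest of the 8 for 5 members (13.2%, with 11.9% of all tested genes) and the 2 highest for 4 (10.5%, with 10.3% of all tested genes).

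Other genes of the pathway were counted in 7 lists, of cosubstrate supply, other conjugating enzymes, transport of conjugates, regulators and genes used as readouts of regulators. Of their 77 tested genes, 4 had an unadjusted p under 0.05 (5.19%, against 5.17% of all tested genes). Of these 4, 2 were higher and 2 lower, and none of the 77 was called by limma. *Papss2*, which makes the activated sulfate that sulfotransferases use, was at 297, 379, 446 and 343 normalized counts in *Rragc*+/+ and 487, 571, 538 and 1314 in *Rragc* S74N/+ livers. The genotypes did not overlap, as was so for 1.30% of all tested genes in the higher direction. The 2-month-old liver was far above the others (log2 fold change 0.88, standard error 0.29, limma adjusted p = 0.846, and 0.55 without that liver). Of the 11 tested genes of sulfate and PAPS supply and of the removal of sulfate, 9 were above 0, against 51.3% of all tested genes. *Papss2* alone of the 11 had an unadjusted p under 0.05.

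Glutathione synthesis and turnover had 11 tested genes, 5 above and 6 below 0. *Ggct*, which releases 5-oxoproline from γ-glutamyl amino acids, was at 95.1, 59.9, 58.0 and 58.9 in *Rragc*+/+ and 31.2, 37.3, 34.5 and 44.9 in *Rragc* S74N/+ livers. The genotypes did not overlap, as was so for 1.64% of all tested genes in the lower direction (log2 fold change of *Ggct* -0.84, standard error 0.28, limma adjusted p = 0.846). *Oplah*, the 5-oxoprolinase that acts next, was at 1313, 1110.1, 1018 and 1351 and 681, 808, 1362 and 434 (log2 fold change -0.66, standard error 0.29, limma adjusted p = 0.846). Here the highest value of all was in the 2.5-month-old *Rragc* S74N/+ liver and the lowest in the 2-month-old one, without which the log2 fold change was -0.39 (unadjusted p = 0.141). *Gclc* and *Gclm*, the subunits of the rate-limiting enzyme of glutathione synthesis, had log2 fold changes of -0.046 and -0.25. Of 7 tested genes of UDP-glucuronate supply and glucuronide handling 2 were above and 5 below 0, and none had an unadjusted p under 0.05. *Ugdh*, which makes UDP-glucuronate, had a log2 fold change of 0.27. Genes named in this paragraph without such a p were chosen after their values were seen.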

How the data were processed

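RNA of 8 livers was sequenced with a 3′ kit that primes on the poly(A) tail. Per the submitters' processing notes, TopHat2 with Bowtie and SAMtools placed the reads on GRCm38, HTSeq counted them per gene, by strand, and DESeq2 scaled the counts. The signal that the authors deposited is this normalized count for each gene. All values (100%) were whole multiples, within 0.01, of the smallest value of their liver, so whole reads were recovered. No molecular identifiers are stated, so counting error is the only error that depth describes.

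Genotypes were compared with limma 3.58.1 in R 4.3.3 (empirical Bayes with a trend) on log2(normalized count + 1), a scale that understates changes of low genes, over the 11174 genes whose mean reached 10. Genotype was the single term, and p was adjusted by Benjamini-Hochberg (0.05). The count tools on recovered reads were edgeR 4.0.16 and DESeq2 1.42.0. P-values measure the spread between these livers, each a separate library. The scripts were tested on simulated data. The families described and the lists were chosen with earlier results of these data known, and within the families every listed gene was taken by name. Named members were those with an unadjusted p under 0.05, the 5 most abundant and the 3 of largest change per subgroup, the 5 most variable, sex-biased members and *Ugt1a* genes (26 in all), and any other member named was chosen after its values were seen. Listed pathway genes were named where the unadjusted p was under 0.05. Other settings were other pseudocounts, filters, scalings and tools, age in the model, 3-month-old mice alone and each liver left out. Gene positions are those of GENCODE M21, a release next to the one the authors counted against. Protein sequences and family members outside the 41 were not analysed here.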

Additional observations from a re-analysis of the deposited data

Results flagged for a closer look

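The 26 members named by rule were searched in both genotypes, 52 groups of 4 livers, for a liver far from the other 3 of its genotype on the log2 scale. About 1 in 20 such groups is flagged by chance, and 3 of the 52 were. *Gstz1* was low in *Rragc*+/+ replicate 2, at 2591 normalized counts with the other 3 livers at 3029 to 3077, and in *Rragc* S74N/+ replicate 1, at 2143 with the other 3 at 2839.7 to 3002. *Sult2a8* was high in *Rragc*+/+ replicate 3, at 1149 with the other 3 at 626 to 685. None of the 3 was *Rragc* S74N/+ replicate 4.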

How the results depend on the processing

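No member was called between genotypes in any of the 20 alternative fits. The number of all genes called was 1, and it was 0 for limma without the trend, with age as a number and in 3-month-old mice alone, 3 with age as a factor (where the 2-month-old liver adds no information), 10 with DESeq2 and 0 to 2 when each liver was left out. Members at an unadjusted p under 0.05 numbered 5, against 2 without the trend, 1 with age as a number, 2 with age as a factor, 2 in 3-month-old mice and 0 to 11 when each liver was left out. It was 0 without *Rragc* S74N/+ replicate 4 (2.81% of all genes had such a p), 1 without *Rragc*+/+ replicate 4 (3.89%) and 1 without *Rragc* S74N/+ replicate 2 (4.86%). It was 2 without *Rragc*+/+ replicate 1 (2.98%), 3 without *Rragc*+/+ replicate 2 (5.41%) and 5 without *Rragc*+/+ replicate 3 (6.78%). It was 6 without *Rragc* S74N/+ replicate 1 (3.87%) and 11 without *Rragc* S74N/+ replicate 3 (15.0%). The share of all genes was 5.40% without the trend, 3.71% with age as a number, 5.66% with age as a factor and 5.74% in 3-month-old mice. Medians of the subgroups moved by less than the spread between replicates, from 0.16 to 0.42 for glutathione transferases, from -0.31 to 0.0037 for glucuronosyltransferases and from -0.37 to 0.13 for sulfotransferases.

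The direction turned in at least 1 alternative for 15 of the 38 members, each within 0.27 of 0 on the log2 scale and 7 of them named by rule. With age as a number, *Sult1d1* was at -0.088 and *Sult2a8* at 0.044 on the log2 scale, with age as a factor *Sult1d1* was at -0.13, *Sult2a8* at 0.0998 and *Ugt2b36* at 0.0040, and in 3-month-old mice *Gstt1* was at -0.00081, *Sult1d1* at -0.42 and *Sult2a8* at 0.0095. With each liver left out in turn the log2 fold change ranged from -0.13 to 0.15 for *Sult1d1*, from -0.26 to 0.13 for *Sult1b1*, from -0.39 to 0.085 for *Sult2a8*, from -0.40 to 0.062 for *Ugt1a5*, from -0.030 to 0.29 for *Ugt1a7c* and from -0.48 to 0.061 for *Ugt2b36*. The cause was not tested.

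For 2.5 against 3 months, in settings added after seeing the data, all genes called numbered 411, against 8 without the trend, 653 with DESeq2 and 5 to 584 when each liver was left out, the lowest being 5 without *Rragc*+/+ replicate 4 and 15 without *Rragc* S74N/+ replicate 3. They were 226 without *Rragc* S74N/+ replicate 1 and 251 without *Rragc*+/+ replicate 2. Members called numbered 2, against 0 without the trend, 1 with age as the only term, 1 with edgeR and 0 to 4 when each liver was left out. Leaving out a 2.5-month-old mouse leaves 1 liver of that age, assumed to vary like the others. Differences of this comparison kept their direction throughout. No paired analysis was possible because the labels carry no replicate numbers, and the numbers used here only name livers. Depth left *Mgst3*, *Sult1c2* and *Sult2a7* untested.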

Other observations

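Other steps of conjugate handling were counted from lists with earlier results known. Among 13 tested genes of other conjugating enzymes, such as methyl and acyl transferases, 8 were above and 5 below 0, with a median log2 fold change of 0.21. Their summed normalized count, over the 15 listed, was 31672 to 35473 in *Rragc*+/+ and 37564 to 38526 in *Rragc* S74N/+ livers, which do not overlap, and this sum was not tested. Among 9 tested genes of conjugate efflux and uptake 3 were above and 6 below 0, with a median of -0.14, and their summed normalized count was 9470 in the 2-month-old liver, against 13335 to 18105 in the other *Rragc* S74N/+ and 14082 to 18884 in *Rragc*+/+ livers. No gene of these lists had an unadjusted p under 0.05.

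Among 18 tested regulators, 9 were above and 9 below 0. *Esr1*, the estrogen receptor, had 28.0, 47.7, 59.4 and 67.3 normalized counts in *Rragc*+/+ and 110.2, 108, 40.1 and 317 in *Rragc* S74N/+ livers, so 3 of these lay above all controls, the 2-month-old liver most of all (log2 fold change 1.19, standard error 0.50, limma adjusted p = 0.846). Without that liver the log2 fold change was 0.69 (unadjusted p = 0.119). Its part in the values of the members was not tested. *Nfe2l2*, whose product NRF2 drives many glutathione transferases, had a log2 fold change of -0.22, and of 11 tested genes that serve as readouts of such regulators 7 were above and 4 below 0, with a median of 0.035 and no unadjusted p under 0.05. *Nfe2l2* was chosen after its value was seen.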
